A study of Mus musculus with 13 samples.

Results

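Genes of testis immune privilege, 9 of the 27111 features with a gene name in the count table, were followed in Sertoli cells sorted from adult mice. They were *Tgfb1*, *Tgfb2* and *Tgfb3*, *Cd55* and *Serping1*, *Il1a*, *Fasl*, *Ido1* and *Cd274*, and each was found under exactly that name in 1 row. The rule that chose them used names and no measured value, although earlier results of these data were known at that time. The question was how strongly Sertoli cells of undisturbed males expressed each factor, and whether its level differed in males that had been stressed as pups.

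The testis tolerates germ cells that carry antigens which appear only after the immune system has learned to recognize self. Sertoli cells form the blood-testis barrier that shelters these germ cells, and they also secrete or display proteins that restrain immune attack. TGF-beta ligands dampen T cells and macrophages, CD55 and the C1 inhibitor encoded by *Serping1* hold back complement, and interleukin 1 alpha is a cytokine that Sertoli cells release and that can open junctions of the seminiferous epithelium. Fas ligand kills activated lymphocytes, indoleamine 2,3-dioxygenase (*Ido1*) deprives them of tryptophan, and PD-L1 (*Cd274*) binds an inhibitory receptor on T cells.

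The study sequenced RNA of Sertoli cells from 6 control males and 7 MSUS males, where MSUS is a model of early life stress in which pups are separated from, and stress is applied to, their mothers without warning. All 13 were wild-type C57Bl/6J males of 3 to 5 months and carried no transgene. MSUS pups had been taken from their dams for 3 h a day at unpredictable times on postnatal days 1 to 14, while the dams swam for 5 min in water of 18 °C or were restrained for 20 min, and controls were left alone. Cells were sorted as diploid, large and bright for MitoTracker, a dye of active mitochondria, so the gate rested on no surface protein and could admit other large cells. Samples are named by group and animal number, as control 9 or MSUS 11, and the numbers pair nothing across groups. Litter and cage were not analysed here.

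The libraries held 13087203 to 18649945 counts in controls and 12701776 to 15693938 in MSUS samples. A count of 3 equalled 0.209 to 0.307 CPM (counts in each 1e6 counts of named genes) before TMM scaling. The CPM levels of genes and marker lists were TMM-scaled. The 5 Sertoli markers drawn in the study averaged 10.18 ± 0.10 log2 CPM (SD) in the 6 controls and 10.15 ± 0.09 in the 7 MSUS samples, against a control median of 4.31 over all genes tested. Of 26 genes of macrophages, lymphocytes and other leukocytes, 25 were in the table, and *Lyz2*, *Nkg7*, *S100a8* and *S100a9* had a count of 0 in all 13 samples. The leukocyte gene *Ptprc* had 0 to 5 counts per sample. Others of the list were higher, with *Il7r* at 21 to 51 counts, *Cd74* at 19 to 69, *H2-Aa* at 10 to 39 and *Cx3cr1* at 1 to 24. *Il7r* and *Cd74* were thus in the count range of the low factors *Cd55*, *Serping1* and *Cd274*, and the cell source of these counts was not tested. The whole list summed to 443.6 to 504.0 CPM in controls and 398.2 to 548.9 CPM in MSUS samples, nearly all of it from *Mrc1*, a mannose receptor with 3962 to 6974 counts per sample. Transcripts of elongated spermatids were also present, at 7.90 ± 0.23 log2 CPM over 4 markers in controls and 8.09 ± 0.46 in MSUS samples. A group difference was detectable in 0 of 11 marker lists (two-sided exact permutation tests, adjusted p = 0.9 for each). These are bulk samples, in which fewer cells of a type and less RNA per cell cannot be told apart.

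In undisturbed males, the 9 factors ranged from *Tgfb1* with at least 784 counts in each sample to *Ido1* with no count in 5 of 6. Levels of different genes were compared as CPM per kb of transcript, with the median length of a gene's protein-coding transcripts. Other genes of their pathways, described below, were placed with this length alone, and their ranks per kb depend on it. *Tgfb1* was highest at 37.4 ± 2.3 CPM per kb (SD, n = 6), followed by *Tgfb3* at 19.7 ± 0.92 and *Il1a* at 5.97 ± 2.10. A lower tier held *Cd55* at 1.37 ± 0.63, *Serping1* at 0.921 ± 0.574 and *Cd274* at 0.813 ± 0.352 CPM per kb. *Fasl*, *Tgfb2* and *Ido1* averaged 0.15, 0.0989 and 0.018 CPM per kb, with at most 11, 10 and 2 counts in a control sample.

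With this length, the order of the first 4 held within every control sample. On the log2 scale of CPM per kb, *Tgfb1* exceeded *Tgfb3* by 0.92 ± 0.09, *Tgfb3* exceeded *Il1a* by 1.77 ± 0.54 and *Il1a* exceeded *Cd55* by 2.14 ± 1.01, each in 6 of 6 controls. Each of these 3 steps had p = 0.0312, the smallest that an exact sign-flip permutation test can give with 6 samples, and an adjusted p = 0.0521 over 5 neighbour pairs. *Cd55* was above *Serping1* in 5 of 6 controls (0.55 ± 0.87, exact p = 0.188), and *Serping1* above *Cd274* in 2 of 6 (0.17 ± 1.07, exact p = 0.719), so the order within the lower tier was not resolved. The step from *Tgfb1* to *Tgfb3* turned with the length used: per kb of all annotated exons, *Tgfb3* was higher by 0.29 ± 0.09 in 6 of 6 controls. The fourth place also changed with that length. *Cd55* fell to the last place of the tested factors, and *Cd274* followed *Il1a*, which exceeded it by 2.85 ± 0.49 in 6 of 6 controls.

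**Figure D1:**
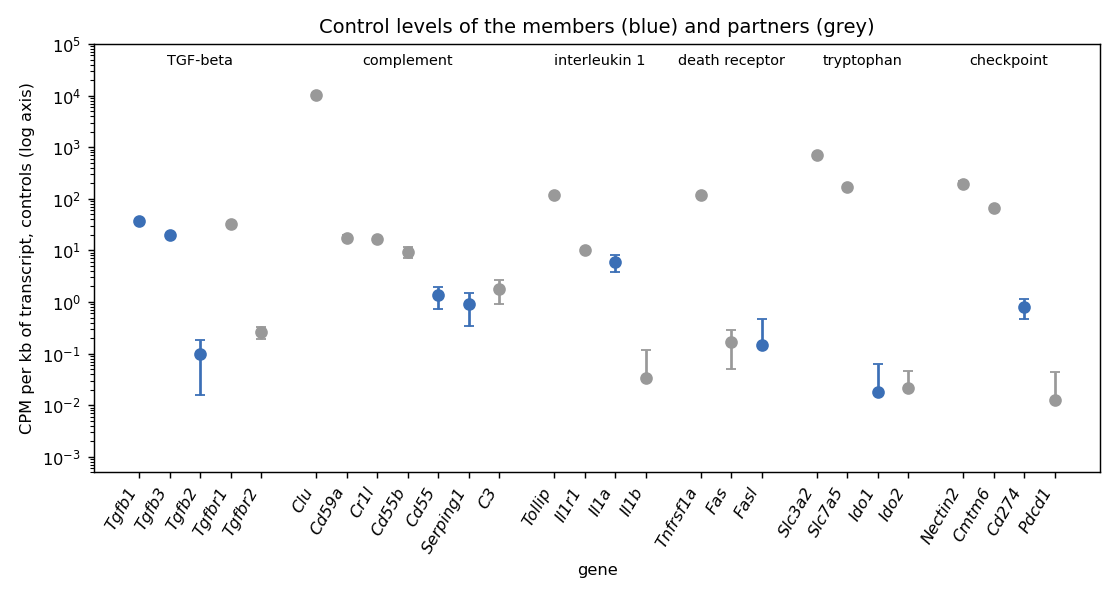
Mean level in 6 control samples as CPM per kb of protein-coding transcript, on a log axis, for the 9 factors (blue) and other genes of their pathways (grey), with SD bars whose lower limb is left out where the SD reaches the mean. *Tgfb1* and *Tgfb3* sit near their receptor gene *Tgfbr1*, while *Fasl*, *Tgfb2* and *Ido1* lie at 0.15 CPM per kb or less.

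No difference between MSUS and control samples was detectable for any of the 9 factors. Of the 9, 6 had enough counts for the test (*Tgfb1*, *Tgfb3*, *Cd55*, *Serping1*, *Il1a*, *Cd274*), and 0 of these 6 had p under 0.05 in limma voom, 2 being higher and 4 lower in MSUS samples. Over all 14421 genes tested, 5.42% had p under 0.05, which is 781 genes. After Benjamini-Hochberg adjustment 0 genes passed in limma voom, and edgeR and DESeq2 gave 793 and 835 genes with p under 0.05 and likewise 0 after adjustment. The median log2 fold change was -0.08 over the 6 factors and 0.00 (-0.0017) over all genes tested. Precision differed widely among the tested factors, with standard errors from 0.06 for *Tgfb3* to 0.46 for *Serping1* on the log2 scale. The data thus bound a change of *Tgfb1* and *Tgfb3* closely and one of the low genes only loosely.

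**Figure D2:**
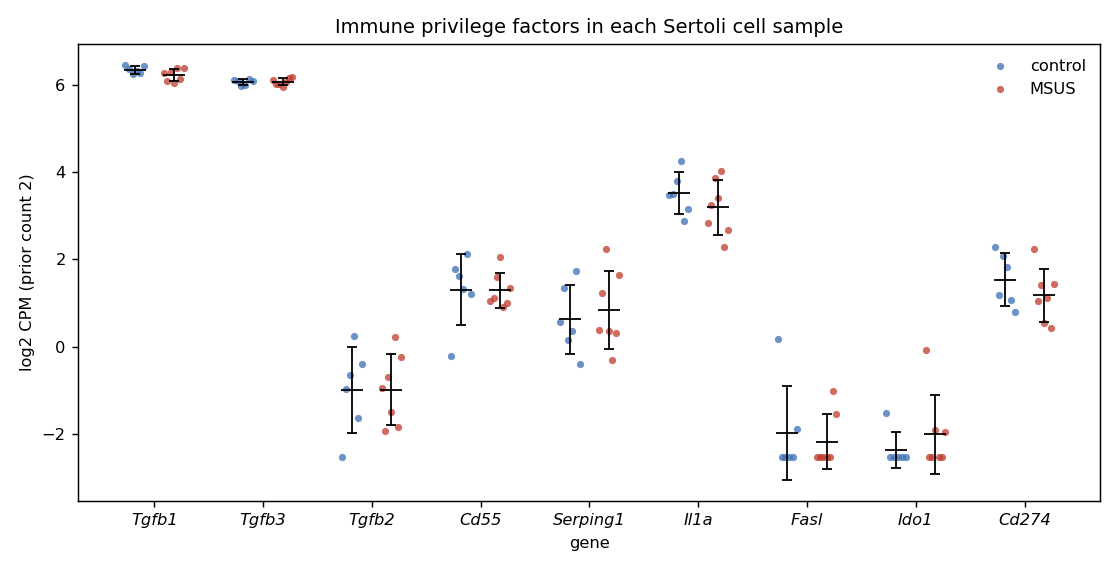
log2 CPM (prior count 2) of the 9 factors in each of 6 control (blue) and 7 MSUS samples (red), with the mean and SD in black. The groups overlap for every gene, the 2 abundant TGF-beta ligands are tight, and samples without a count of *Fasl* or *Ido1* lie at the bottom on a floor set by the prior count.

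The TGF-beta ligands are described first. *Tgfb1*, at chr7:25687002-25705077 on the plus strand (GRCm38), encodes the ligand best known for inducing regulatory T cells. Control counts ran from 784 to 1199 (median 990), and MSUS counts from 651 to 985 (median 877). In log2 CPM the controls had a lowest value of 6.24, a median of 6.34 and a highest of 6.46, and the MSUS samples 6.04, 6.28 and 6.37. MSUS 5, MSUS 11 and MSUS 23 lay below all controls, while the other 4 MSUS samples fell inside the control range. The means were 6.35 ± 0.09 and 6.23 ± 0.14, a log2 fold change of -0.12 ± 0.07 (SE), or 0.923-fold with a 95% interval of 0.834 to 1.02 (limma voom, adjusted p = 0.878).

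*Tgfb3*, at chr12:86056745-86079041 on the minus strand, encodes a ligand that in rodent testis is known to loosen Sertoli cell junctions. Its control values were 5.97 at the lowest, 6.09 at the median and 6.14 at the highest, and its MSUS values 5.95, 6.05 and 6.19 log2 CPM. The groups lay on top of each other, and the log2 fold change was 0.01 ± 0.06 (limma voom, adjusted p = 0.986), which the 95% interval bounds between 0.921-fold and 1.1-fold. Among all genes tested *Tgfb3* was one of the steadiest between mice. Its within-group SD of 0.08 stood at percentile 1.8, its variance was 2.15 times the counting noise, and the highest sample exceeded the lowest by 1.18 times. In the annotation *Tgfb3* overlaps *Ttll5* on the opposite strand, and the strand setting of the counting is not given in the sources used here.

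*Tgfb2*, at chr1:186622792-186705989 on the minus strand, was nearly absent. Controls 9, 10, 12, 14, 22 and 24 had 0, 5, 6, 10, 2 and 6 counts, and MSUS 1, 5, 6, 11, 13, 23 and 26 had 4, 1, 5, 2, 11, 1 and 8. The groups overlapped fully at 0.426 ± 0.358 and 0.406 ± 0.332 CPM (exact permutation test, two-sided, p = 0.923).

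Taken as shares of the summed CPM per kb of the 3 ligands, *Tgfb1* made up 65.3% ± 1.3 (SD) of the control total and 63.3% ± 1.8 of the MSUS total. *Tgfb3* made up 34.5% ± 1.4 and 36.6% ± 1.9, and *Tgfb2* 0.176% ± 0.149 and 0.167% ± 0.129. These shares depend on the length used, as the order of levels did: per kb of all annotated exons, *Tgfb1* made up 44.9% ± 1.4 of the control total and 42.7% ± 1.9 of the MSUS total, and *Tgfb3* 54.9% ± 1.5 and 57.1% ± 2.1. The log2 ratio of *Tgfb1* to *Tgfb3* within a sample, which is free of library size, was 0.28 ± 0.09 in controls (lowest 0.13, median 0.30, highest 0.35) and 0.16 ± 0.12 in MSUS samples (lowest -0.02, median 0.16, highest 0.32). It lay below the control mean in 6 of 7 MSUS samples and below all controls in 3, and the groups overlapped. The difference of -0.13 had p = 0.0548 by an exact permutation test and an adjusted p = 0.164 over the 3 ligand pairs. Leaving out 1 sample at a time moved it between -0.16 and -0.10. The unadjusted exact p fell to 0.0189 without control 22, 0.0238 without MSUS 13 and 0.0411 without MSUS 6. With any other sample left out it stayed above 0.05. The highest values were 0.107 without control 9 and 0.106 without control 24 or MSUS 23.

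Beside the ligands, 25 of 32 listed partners, receptors and targets were abundant enough to test, and 0 of them had p under 0.05 (median log2 fold change 0.04). The 3 highest per kb in controls were *Itgav*, an integrin subunit that helps release latent TGF-beta, at 158 ± 12 CPM per kb, the signal transducer *Smad3* at 88.1 ± 6.5 and the repressor *Tgif1* at 39.7 ± 3.3. These ranks depend on the length used. Without division by length, *Thbs1* was above *Itgav*, at 6.885 against 6.763 log2 CPM in controls. The receptor genes, named here after their values were seen, stood far apart. The type I receptor *Tgfbr1* had 33.2 ± 1.9 CPM per kb in controls, and the type II receptor *Tgfbr2*, which binds the ligand first, had 0.26 ± 0.064.

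*Cd55* encodes decay-accelerating factor, a membrane protein that disassembles the complement enzymes which cleave C3. It lies at chr1:130439027-130462744 on the minus strand next to its paralog *Cd55b* at chr1:130388537-130423009, and this pair limits what the counts of *Cd55* can say. The coding sequences of the first transcripts of both genes (1170 and 1200 bases) were identical at 1056 of 1141 aligned positions, or 92.55%. Of the 4753 stretches of 31 bases in *Cd55* transcripts, 531 also occur in *Cd55b*, where they make up 31.78% of all such stretches. A window of 90 bases in exon 2, at chr1:130461918-130462007 in *Cd55* and chr1:130422211-130422300 in *Cd55b* (GRCm38, minus strand, 5′ to 3′), is shown because all of its bases are the same in both genes:
Cd55 exon 2: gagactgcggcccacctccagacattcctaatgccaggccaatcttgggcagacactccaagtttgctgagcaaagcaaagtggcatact
Cd55b exon 2: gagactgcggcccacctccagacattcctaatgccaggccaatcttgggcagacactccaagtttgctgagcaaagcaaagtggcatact

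Only the 372 windows of that length without a gap and inside 1 exon of both genes were compared. Of these, the window with the most differences lies in exon 6, at chr1:130452445-130452534 in *Cd55* and chr1:130414110-130414199 in *Cd55b* (GRCm38, minus strand). Its 10 differing bases are in capitals, and the sequence there differs between the genes:
Cd55 exon 6: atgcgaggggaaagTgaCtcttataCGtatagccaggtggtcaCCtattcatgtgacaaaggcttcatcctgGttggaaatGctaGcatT
Cd55b exon 6: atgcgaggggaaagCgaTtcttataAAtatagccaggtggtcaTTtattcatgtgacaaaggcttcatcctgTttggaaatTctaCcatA

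The estimated counts of both genes were fractional in 13 of 13 samples, while their sum was whole within 0.005 in 12 of 13. *Cd55* received 5.27% to 28.7% of that sum in controls (median 20.7%) and 12.3% to 23.1% in MSUS samples (median 16.4%). The smaller share of the pair thus went to the gene listed as the privilege factor. Per kb, *Cd55b* stood at 9.27 ± 2.29 CPM in controls against 1.37 ± 0.63 for *Cd55*.

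**Figure D3:**
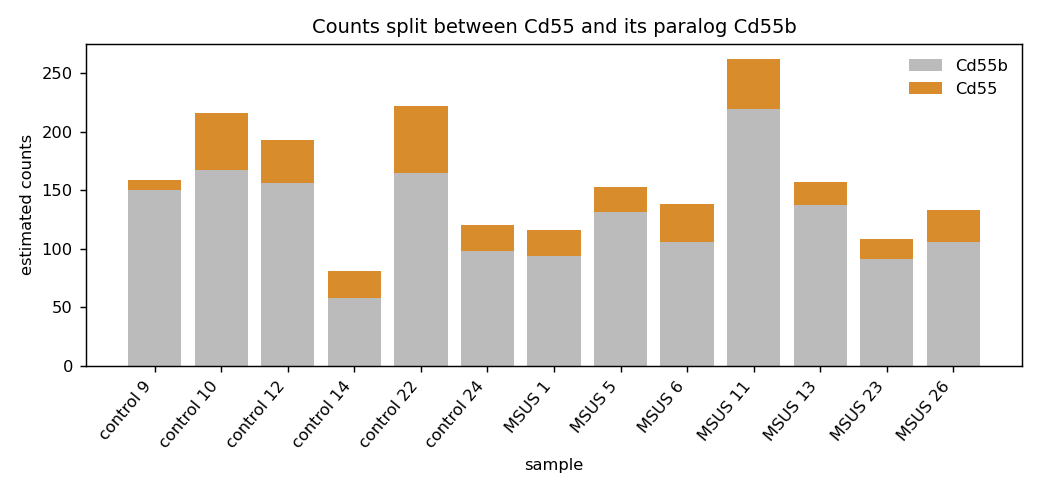
Estimated counts of *Cd55* (orange) stacked on those of *Cd55b* (grey) in each of the 13 samples. *Cd55b* takes most of the counts everywhere, control 9 has the smallest *Cd55* share at 5.27%, and MSUS 11 has the most counts of *Cd55b*.

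The counts of *Cd55* were 8 to 57 in controls (median 30) and 17 to 43 in MSUS samples (median 22). In log2 CPM the lowest, median and highest values were -0.20, 1.47 and 2.13 in controls and 0.92, 1.11 and 2.05 in MSUS samples. All MSUS samples lay inside the control range, which control 9 stretched downwards. The log2 fold change was -0.04 ± 0.35 (limma voom, adjusted p = 0.986), an interval of 0.586-fold to 1.61-fold. It was -0.36 without control 9 and 0.14 without control 22, and 0.01 with the counts of *Cd55* and *Cd55b* added together, none with p under 0.05. *Cd55b* had 58 to 168 counts in controls and 91 to 219 in MSUS samples, with a log2 fold change of 0.05 ± 0.21 (limma voom, adjusted p = 0.977).

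*Serping1*, at chr2:84765387-84775444 on the minus strand, encodes the inhibitor of C1r, C1s and the lectin pathway proteases. It had 6 to 43 counts in controls (median 13.5) and 7 to 51 in MSUS samples (median 13). Its lowest, median and highest log2 CPM were -0.40, 0.47 and 1.74 in controls and -0.31, 0.38 and 2.24 in MSUS samples. Both groups held a few high samples among low ones: controls 10 and 22 and MSUS 5, 6 and 26 had 24 counts or more, and the other 8 samples had 15 or fewer. Only MSUS 6 exceeded all controls. The log2 fold change was 0.18 ± 0.46 (limma voom, adjusted p = 0.967), an interval from 0.579-fold to 2.21-fold, and it turned to -0.07 without MSUS 6 and to -0.03 without control 24. Its within-group SD of 0.85 stood at percentile 97.4 of all genes tested and its variance was 9.32 times the counting noise.

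The other inhibitors of complement, 11 of 17 with enough counts, had 0 genes with p under 0.05 (median log2 fold change 0.05). *Clu*, which encodes the secreted complement inhibitor clusterin and is one of the Sertoli markers, towered over them at 10440 ± 718 CPM per kb in controls. *Cd59a*, the inhibitor of the membrane attack complex, had 17.6 ± 1.9 CPM per kb, and *Cr1l*, which encodes the rodent inhibitor Crry, had 16.5 ± 1.2. *Cd59a* was below the control mean in 6 of 7 MSUS samples, with a log2 fold change of -0.19 ± 0.10 that missed an unadjusted p of 0.05 in limma voom. Complement components were scarce by comparison, since 7 of 24 could be tested and the highest per kb, *C3*, had 1.82 ± 0.89 CPM per kb and did not pass the count filter. The next per kb were *C4a* at 1.60 ± 0.41 and *C8g*, a chain of the terminal complex, at 1.24 ± 0.71. *C3* led only after division by length. In log2 CPM, *C4b* and *C4a* were higher in controls, at 0.903 and 0.626 against 0.102 for *C3*. None of the 7 had p under 0.05 (median log2 fold change 0.19).

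*Il1a*, at chr2:129299610-129309972 on the minus strand, had 90 to 186 counts in controls (median 145) and 44 to 177 in MSUS samples (median 103). In log2 CPM, control 22 was lowest at 2.89 and control 14 highest at 4.25 around a median of 3.49, and MSUS 23 was lowest at 2.29 and MSUS 13 highest at 4.02 around a median of 3.25. MSUS 1, MSUS 23 and MSUS 26 lay below all controls and the rest overlapped. The means were 3.51 ± 0.48 and 3.19 ± 0.63, a log2 fold change of -0.29 ± 0.26 (limma voom, adjusted p = 0.899), or 0.816-fold with an interval of 0.56 to 1.19. It ranged from -0.43 without control 22 to -0.16 without MSUS 23 when 1 sample was left out, and was -0.17 with sample quality weights. Among the 6 tested factors *Il1a* had the largest variance relative to counting noise, at 17.99 times, and its CPM differed 3.997 times between the highest and lowest sample. It was also the only one of the 6 with p under 0.05 in any alternative fit: with the elongated spermatid marker score as a covariate the log2 fold change was -0.51 with an unadjusted p under 0.05, while 1205 of all genes then had p under 0.05.

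The other genes of interleukin 1 signalling numbered 22, of which 13 were tested. *Tollip*, which encodes an inhibitor of signalling below the receptor and was the highest of the list at 119 ± 6.6 CPM per kb, was lower in MSUS samples before adjustment. Its log2 CPM was 7.76 ± 0.08 in controls and 7.60 ± 0.13 in MSUS samples, and all 7 MSUS values were under the mean of controls, 5 of them under every control. The log2 fold change of -0.16 ± 0.06 had an unadjusted p under 0.05 and an adjusted p = 0.878 in limma voom. *Nfkbia*, the inhibitor of NF-kappa B, and *Rela*, its target subunit, followed at 105 ± 13 and 84.6 ± 3.5 CPM per kb. Of the genes named after their values were seen, the receptor *Il1r1* had 10.4 ± 0.59 CPM per kb. The sister cytokine *Il1b* had 10 counts and the receptor antagonist *Il1rn* 18 counts over all 13 samples together.

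*Fasl*, at chr1:161780689-161788495 on the minus strand, had a count of 0 in 4 of 6 controls and 5 of 7 MSUS samples. Control 9 had 11 counts, control 24 had 1, MSUS 23 had 3 and MSUS 26 had 2. Control 9 alone thus held 11 of the 12 control counts, and no group difference was detectable (exact permutation test of CPM, p = 0.731). Its receptor gene *Fas*, named after its values were seen, had 24 counts over all 13 samples. A count of 0 in a sample allows a level of up to 0.209 to 0.307 CPM before TMM scaling, counting error only. The data thus speak of a low level and not of absence.

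In the death receptor pathway, a list that holds receptors and ligands as well as downstream genes, 12 of 16 listed genes were tested. Per kb the TNF receptor *Tnfrsf1a* led with 118 ± 8.9 CPM, while *Adam10* was higher without division by length, at 7.82 log2 CPM in controls. *Tnfrsf1a* was lower in MSUS samples before adjustment, at 6.55 ± 0.11 against 6.70 ± 0.11 log2 CPM. All 7 MSUS samples lay below the control mean and 3 below all controls (log2 fold change -0.14 ± 0.07, limma voom, unadjusted p under 0.05, adjusted p = 0.878). *Adam10*, a protease that sheds Fas ligand, had 86.6 ± 3.2 CPM per kb and *Cflar*, an inhibitor of caspase 8, had 26.7 ± 0.62. Neither had p under 0.05.

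*Ido1*, at chr8:24584136-24597009 on the minus strand, had 2 counts in control 9 and 0 in the other 5 controls. MSUS 1 had 9 counts, MSUS 11 and MSUS 26 had 1 each, and the other 4 MSUS samples had 0. The sums of 2 and 11 counts rested on 1 mouse in each group, and no group difference was detectable (exact permutation test of CPM, p = 0.584). Of 18 further genes of the tryptophan to kynurenine route, 8 were tested with 0 at p under 0.05 (median log2 fold change -0.02). The transporter chains that carry tryptophan and other large amino acids were abundant, with *Slc3a2* at 710 ± 68 and *Slc7a5* at 172 ± 8.1 CPM per kb, and *Kyat3*, a kynurenine aminotransferase, had 15.8 ± 1.3. Without division by length, *Slc7a5* was above *Slc3a2*, at 9.24 against 8.84 log2 CPM in controls. *Ido2*, named after its values were seen, had 10 counts over all samples.

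*Ido1* and *Cd274* are known targets of interferon gamma, and 14 of 19 genes of that response were tested with 0 at p under 0.05 (median log2 fold change 0.03). The receptor and its kinase were expressed, at 98.3 ± 4.8 CPM per kb for *Jak1*, 71.0 ± 7.2 for *Ifngr2* and 44.8 ± 2.3 for *Ifngr1*. The ligand gene *Ifng*, named after its values were seen, had 10 counts over all 13 samples.

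*Cd274*, at chr19:29367455-29388095 on the plus strand, had 54, 31, 52, 33, 26 and 16 counts in controls 9, 10, 12, 14, 22 and 24. MSUS 1, 5, 6, 11, 13, 23 and 26 had 53, 21, 28, 14, 22, 11 and 30. MSUS 11 and MSUS 23 lay below all controls, 6 of 7 MSUS samples lay below the control mean, and MSUS 1 was close to the highest control. The means were 1.54 ± 0.61 and 1.18 ± 0.61 log2 CPM, a log2 fold change of -0.34 ± 0.33 (limma voom, adjusted p = 0.909), or 0.791-fold with an interval of 0.49 to 1.28. It was -0.19 without control 9 and -0.53 without MSUS 1, the ends of the range over left-out samples. Of its 3558 stretches of 31 bases, 84 occur in other genes, and its estimated counts were fractional in 13 of 13 samples.

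Of 22 other checkpoint ligands and receptors, 9 were tested and 0 had p under 0.05 (median log2 fold change 0.01). The highest were *Nectin2*, a ligand of inhibitory and activating receptors on lymphocytes, at 197 ± 22 CPM per kb, *Cmtm6*, which keeps PD-L1 at the cell surface, at 66.1 ± 3.5, and *Pvr*, a relative of *Nectin2*, at 19.1 ± 1.4. The level of *Cd274* itself was 0.813 ± 0.352 CPM per kb. *Pdcd1*, the gene of the receptor of PD-L1 and named after its values were seen, had 9 counts over all samples.

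Among 30 further genes listed for immune regulation by Sertoli cells, 21 were tested with 0 at p under 0.05 (median log2 fold change -0.02). The list was not limited to anti-inflammatory genes and also held *Ccl2*, *Ptgs2* and *Inhba*. *Inha*, the inhibin alpha subunit, had 319 ± 36 CPM per kb, and the protease inhibitors *Serpina5* and *Serpinb6a* had 281 ± 19 and 179 ± 14. Over all 9 lists, 120 of 200 genes were tested, 0 were higher and 2 lower with p under 0.05 (*Tollip* and *Tnfrsf1a*), and the median log2 fold change was 0.02. Over all genes tested, 3.02% were higher and 2.4% lower at that threshold.

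**Figure D4:**
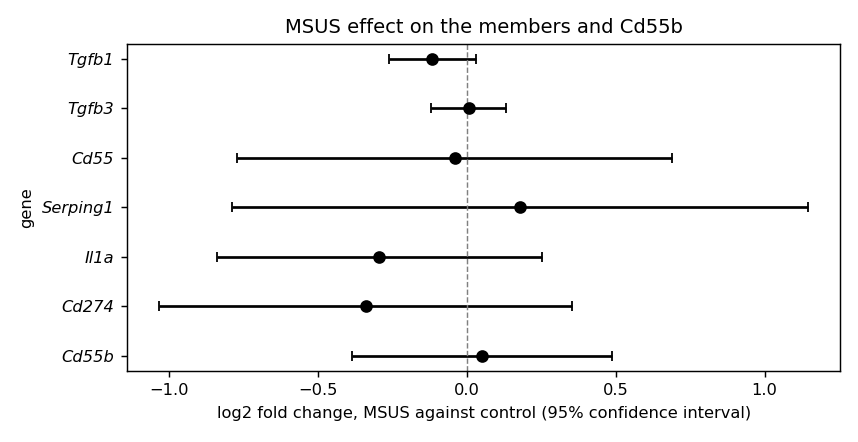
log2 fold change of MSUS (n = 7) against control (n = 6) from limma voom with its 95% confidence interval, for the 6 tested factors and *Cd55b*. All intervals include 0, and those of *Tgfb1* and *Tgfb3* are several times narrower than those of *Cd55*, *Serping1* and *Cd274*.

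With group means subtracted, the 15 pairs of tested factors had Pearson correlations from -0.77 to 0.48 over 13 samples, 8 of them positive. The strongest joined *Il1a* and *Tgfb3*, where mice high in one were low in the other: r = -0.77 (permutation p = 0.00564, adjusted p = 0.0846 over 15 pairs) and rho = -0.83 (permutation p = 0.00154, adjusted p = 0.0231). It was -0.87 within controls and -0.71 within MSUS samples, and -0.86 without the 2 samples farthest from the median. *Tgfb3* moved by only 1.18 times between extremes while *Il1a* moved by 3.997 times. Of 66 pairs of a factor and a marker list, 5 had an unadjusted p under 0.05 for r and 0 passed adjustment. The elongated spermatid markers were in 2 of them, 1 with each gene. Their mean correlated with *Tgfb3* at r = -0.74 (rho = -0.72, permutation p = 0.00723 and 0.0123) and with *Il1a* at r = 0.66 (rho = 0.73, permutation p = 0.0248 and 0.0108). The adjusted p over the 66 pairs was 0.477 and 0.546 for r by permutation. Without the 2 extreme samples these were -0.56 and 0.60, and after removal of the marker score from both genes the correlation of *Il1a* with *Tgfb3* was -0.55. The part of spermatid RNA in the relation was not tested beyond this. The other 3 pairs were *Tgfb3* with round spermatid markers (r = -0.64, rho = -0.54, permutation p = 0.0245 and 0.0767), *Il1a* with endothelial markers (r = 0.61, rho = 0.60, permutation p = 0.0418 and 0.0438) and *Cd274* with innate lymphoid markers (r = 0.59, rho = 0.56, permutation p = 0.0459 and 0.0728). Without the 2 extreme samples their r was -0.50, 0.61 and 0.39, and the adjusted p for r was 0.546, 0.606 and 0.606.

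**Figure D5:**
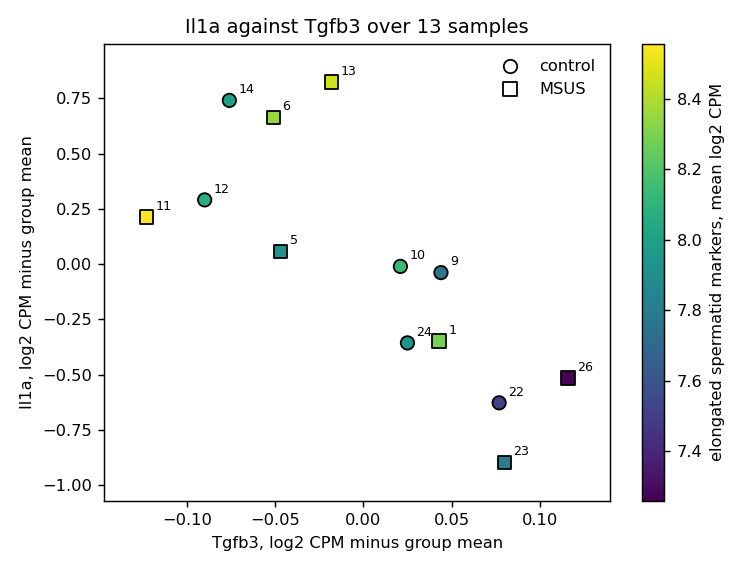
log2 CPM of *Il1a* against *Tgfb3*, each minus its group mean, in 6 control (circles) and 7 MSUS samples (squares) labelled by animal number and coloured by the mean log2 CPM of 4 elongated spermatid markers. Points fall from upper left to lower right (r = -0.77), and the samples with the lowest spermatid marker level, MSUS 26 and control 22, lie at the lower right.

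The second pair with an unadjusted p under 0.05 was *Tgfb1* with *Cd55* (r = -0.50, permutation p = 0.0451, adjusted p = 0.338, rho = -0.39, permutation p = 0.188), and *Cd55* counts depend on the split with *Cd55b*. The correlation of *Cd55* with the Leydig cell markers did not pass (r = 0.74, permutation p = 0.0623, adjusted p = 0.685, rho = 0.51, permutation p = 0.0834). It was 0.69 without the 2 extreme samples, 0.95 within controls and -0.12 within MSUS samples, and among controls control 9 was lowest in both.

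The gene most like each factor over the 13 samples was the one with the highest Pearson r among 13232 candidates after subtraction of group means. These were *Rras2* for *Tgfb1* (r = 0.87), *Bcar1* for *Tgfb3* (0.88), *Sun3* for *Cd55* (0.86), the mitochondrially encoded *ND6* for *Serping1* (0.88), *Haus4* for *Il1a* (0.93) and *Ccser2* for *Cd274* (0.91). The median best match of all genes tested was 0.91, so 4 of the 6 factors had a weaker best match than the typical gene, and only *Il1a* and *Cd274* stood above it.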

How the data were processed

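Libraries from 5 ng RNA per mouse were amplified with 12 PCR cycles and sequenced single-end at 100 bp. The authors trimmed reads with Trim Galore 0.6.5, assigned them with Salmon 1.1.0 to GENCODE vM23 transcripts and deposited estimated counts per gene without normalization. How transcripts were summed to genes is not given in the sources used here. Of 54281 features, 27170 without a gene name held 20.7% to 26.7% of the counts and entered neither library sizes nor tests. The table had 0 columns that matched no sample.

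Scaling by TMM (edgeR 4.0.16, R 4.3.3) and the limma 3.58.1 voom test follow the study's methods. Rounding of counts, the filterByExpr filter and the removal of unnamed features were choices made here. The p-values were adjusted by Benjamini-Hochberg across every gene in the fit unless another family is named. log2 CPM used a prior count of 2. Ratios and levels of the 3 genes under the filter were compared by two-sided exact permutation over the 1716 possible splits. Correlations used 100000 permutations within groups. Alternatives included DESeq2 1.42.0 and the quasi-likelihood test of edgeR. In a simulation of this comparison with 14236 genes, limma voom gave p under 0.05 for 85.1%, 98.0% and 100.0% of genes changed by 0.585, 1.0 and 2.0 on the log2 scale and for 4.95% of unchanged genes. The changed genes were drawn at random, 47 of them at 0.585, with dispersions from the trend over all genes. The standard errors of *Il1a*, *Cd274*, *Cd55* and *Serping1* were 0.259, 0.33, 0.348 and 0.46, against a median of 0.128 over all genes tested. The simulated shares therefore do not carry over to these factors. Coordinates, lengths, sequences and shared stretches come from GENCODE vM21 on GRCm38, the same build as the authors' release.

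The 9 genes and the lists were chosen with earlier results of these data known. Named genes were the 9 members, the 3 highest per kb and any with p under 0.05 of each list, and the gene most like each member. Depth allowed 3 counts to be seen at 0.209 to 0.307 CPM before TMM scaling, and the spread between mice limited precision. p-values measure the spread between these mice. They treat each mouse as independent and take no account of litter or cage.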

Additional observations from a re-analysis of the deposited data

Results flagged for a closer look

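In 7 of 44 groups of values, 1 sample stood far from the rest of its group by Dixon's criterion, where chance alone gives about 2.2. Of these, 3 concern the factors near the detection floor, where most samples of the group had a count of 0 and a few counts are enough for a flag. The 2.2 takes no account of this, so 7 against 2.2 overstates the excess. *Fasl* was at 0.955 CPM in control 9, with the next control at 0.0971. *Ido1* was at 0.174 CPM in control 9 with the other controls at 0, and at 0.779 CPM in MSUS 1 with the next MSUS sample at 0.0922. The *Tgfb1* to *Tgfb3* log2 ratio was low in control 22 at 0.125, with the next control at 0.268. The other 3 were marker lists. The round spermatid markers averaged 3.22 log2 CPM in control 10 (next 3.61) and 4.62 in MSUS 11 (next 3.84), and the Leydig cell markers averaged 1.17 in control 9 (next 2.41).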

How the results depend on the processing

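No paired analysis was possible because the replicate numbers are animal numbers and the groups share none. The number of genes with p under 0.05, 781 as reported, was 1182 with no count filter, 1205 with the elongated spermatid score as a covariate and 1239 with the round spermatid score, an alternative added after the data were seen; it ranged from 534 to 1121 when 1 sample was left out. Without TMM factors, the higher and lower genes numbered 324 and 468, against 435 and 346. The factors with p under 0.05 numbered 1 (*Il1a*) with the elongated spermatid score and 0 in the other alternatives, including each left-out sample. The log2 fold change of *Tgfb3* turned to -0.00871 with library size alone, -0.000492 with sample quality weights and -6.88e-05 with unnamed features kept, and ranged from -0.0121 to 0.0274 over left-out samples. *Il1a* ranged from -0.432 to -0.162 and *Cd274* from -0.529 to -0.186. *Cd55* ranged from -0.363 to 0.144 and was 0.00729 when summed with *Cd55b*, and *Serping1* ranged from -0.0659 to 0.431. The log2 ratio of *Tgfb3* to *Tgfb2* was -0.124 with a prior count of 0.5 and ranged from -0.258 to 0.321, that of *Tgfb1* to *Tgfb2* from -0.375 to 0.208 and that of *Tgfb1* to *Tgfb3* from -0.158 to -0.098. In the order of levels, 0 neighbour pairs had an adjusted p under 0.05 by exon union length, and 3 pairs did over all 13 samples. With a control left out the number was also 0. That 0 was fixed in advance, because too few samples remain for the exact sign-flip test to reach p under 0.05. Pairs of factors with an adjusted p under 0.05 by Pearson's r numbered 0 as reported and 0 to 1 over left-out samples, the 1 arising without MSUS 13, while by Spearman's rho 1 pair passed with all samples. In the pathway lists 5 genes had p under 0.05 with library size alone. The causes of these shifts were not tested. Of 110 values under other settings, 94 kept direction and side of the threshold, as did 148 of 175 with a sample left out. The 175 include the 6 orders with a control left out, whose side of the threshold was fixed. Low counts limit *Tgfb2*, *Fasl* and *Ido1*.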
